A study of Rattus norvegicus with 13 samples.

Results

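Hotspots of meiotic DNA double-strand breaks (DSBs) that were strong in both WKY and SHR rats were taken from a table of 96640 hotspot windows, each 3000 bp wide except for 1, merged over 5 testis libraries. The strongest shared hotspots were chosen by their strength in WKY and in wild-type SHR: a WKY strength of 1000 or more, an SHR strength of 100 or more and a WKY strength 2 to 8 times that of SHR, on chromosomes 1 to 20. These limits kept 932 of the 91120 autosomal windows. On chromosome X 589 of 5520 windows met the same strength limits and were left aside. Because the WKY and wild-type SHR values and their ratio chose these hotspots, those values are given as a description and were not tested.

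DSB sites were mapped by DMC1 ChIP followed by single-stranded DNA sequencing (SSDS), which recovers the single-stranded DNA coated by the recombinase DMC1 at the ends of a break. Each of the 5 libraries came from snap-frozen adult testis, and the wild-type SHR male was a littermate of the homozygous mutant: wild-type WKY, wild-type SHR (SHR/OlaIpcv), SHR heterozygous for a Prdm9 deletion (Prdm9+/-, KO/wt below), SHR homozygous for a deletion (Prdm9-/-, KO/KO below) and wild-type BN (BN/RIJHsd). Every strain and genotype was represented by 1 library, so no difference between libraries could be set against replicate spread, and no p-value is given. The other samples of the series, input DNA and H3K4me3 ChIP, had no column in the table and were not analysed here. SHR and WKY are related strains that carry the same Prdm9 allele, whereas BN carries a different one.

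PRDM9 is a histone methyltransferase made in early meiotic germ cells. Its zinc finger array binds DNA at a motif that depends on the allele, and its PR/SET domain places H3K4me3 and H3K36me3 on the nucleosomes nearby, where the topoisomerase-like protein SPO11 then cuts. The broken ends are resected to single strands, which DMC1 covers and leads into the homologous chromosome for repair. In rodents without PRDM9, breaks form largely at promoters and other sites that carry H3K4me3 on their own.

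Strength is the score the authors computed for each window in each library. It can fall below 0, its scaling between libraries is not stated in the sources used here, and the read depth behind it is unknown. In whole testis, the share of cells with a break at a site, the time DMC1 stays on it and the share of spermatocytes in the tissue cannot be told apart. The table also marks in which libraries a window was called as a hotspot. Intervals of medians and shares are 95% intervals over windows of 1 library and cover counting error only, since windows are not replicates of a strain.

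The KO/KO male carried KO39, a deletion in the PR/SET part of Prdm9 that is named for its length in genomic base pairs. This deletion also takes part of an intron. The sequenced SHR cDNAs show only what is missing from the transcript. Capitals mark the 29 bases of the wild-type cDNA that are missing from the cDNA of the deletion allele, with 30 bases of shared sequence on either side. 29 leaves a remainder of 2 when divided by 3, so the reading frame shifts, and 2 other placements of the missing stretch give the same cDNA. Which deletion the KO/wt male carried is not stated in the sources used here.
SHR wild-type cDNA: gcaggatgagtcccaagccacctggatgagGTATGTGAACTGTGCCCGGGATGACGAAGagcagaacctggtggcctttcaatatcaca
SHR deletion cDNA: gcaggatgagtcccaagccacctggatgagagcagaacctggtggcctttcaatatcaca

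The hotspots were spread over a wide range above the limits, with a few sites far above the rest. WKY strength ran from 1000 to 26104 with a median of 1232 (95% interval 1206 to 1258) and quartiles of 1086 and 1474.5. Wild-type SHR strength ran from 129 to 6649 with a median of 300 (291 to 310). The WKY to SHR ratio had a median of 4.44 and ran from 2.02 to 7.96. For reference, the 16785 autosomal windows called in both WKY and wild-type SHR at a WKY strength under 1000, named weaker shared hotspots here, had medians of 316 in WKY and 71 in wild-type SHR. Their median ratio of 4.31 lay close to that of the strongest sites.

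The limits cut through a continuum. On chromosomes 1 to 20, 1076 windows reached 1000 in WKY and 100 in SHR, of which 48 fell below the ratio band and 96 above it. The windows nearest to the WKY limit had a strength of 1000 inside (chr11:83520054-83523054, SHR 357) and 999 outside (chr2:271011387-271014387, SHR 159). At the lower ratio limit the nearest windows were chr2:143235159-143238159 inside, at 2.02, and chr9:104173022-104176022 outside, where 1668 in WKY and 835 in SHR gave a ratio just under 2. At the upper limit they were chr5:159282549-159285549 inside, at 7.96, and chr9:84118050-84121050 outside, at 8.06. The SHR limit of 100 could remove no window from the band by itself, because the WKY limit and the upper ratio limit already require more. The weakest site in SHR, chr5:150663096-150666096 with a strength of 129, was likewise bounded by those limits. The other 346 autosomal windows of WKY strength 1000 or more fell outside the rule, 202 of them with an SHR strength under 100.

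Among the 932 sites the strongest was chr3:53458839-53461839. It scored 26104 in WKY, while SHR gave 6649 in the wild-type, 10158 in the KO/wt and 44 in the KO/KO male, and BN gave 9. The window chr1:153000819-153003819 came next, with 8268 in WKY, 3709 in SHR wild-type, 6469 in KO/wt, 27 in KO/KO and -45 in BN. Both were the highest of all 932 in WKY, wild-type SHR and KO/wt alike, and both were among the sites where the heterozygote exceeded the wild-type male. This order holds within the rule only. A called window on chromosome 1 that fell below the ratio band had 13250 in WKY, 7282 in SHR wild-type and 9559 in KO/wt. It exceeded the second of these sites in all of these libraries, and the first in wild-type SHR.

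A pair of overlapping windows followed in the WKY order. The window chr3:52344233-52347233 had 8057 in WKY, 1705 in SHR wild-type, 1977 in KO/wt, 5 in KO/KO and 35 in BN. Its neighbour chr3:52344734-52347734 had 7099, 1487, 1688, 7 and 37 in the same libraries. The first was called in WKY and in both SHR libraries with PRDM9 and the second in BN alone, so the pair counts the same signal under separate marks. The window chr3:53080201-53083201 had the next WKY value, with strengths of 6549 in WKY, 1090 in SHR wild-type, 1460 in KO/wt, 13 in KO/KO and 6 in BN. In wild-type SHR and KO/wt the next value after the chromosome 3 and chromosome 1 sites above belonged to chr1:148002814-148005814, with 6228 in WKY, 2258 in SHR wild-type, 3320 in KO/wt, 9 in KO/KO and 13 in BN.

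In WKY and wild-type SHR the rule itself raised the strongest shared hotspots over the weaker ones. At the median they also stood well above the weaker ones in KO/wt, but not in KO/KO or BN. KO/wt strength, which the rule did not use, ran from 56 to 10158 with a median of 349.5 (327 to 371), against 64 at weaker shared hotspots. KO/KO strength ran from -145 to 99 with a median of 4 (4 to 4), against 3 at weaker shared hotspots. BN strength ran from -309 to 352 with a median of 9 (9 to 10), against 9. The 95% points were 14 in both sets in KO/KO, and 38.35 against 25 in BN. The KO/KO and BN medians lay within 1 unit of the levels in autosomal windows not called in those libraries, 3 and 8, and far under the medians of called autosomal hotspots, 64 and 71.

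**Figure D1:**
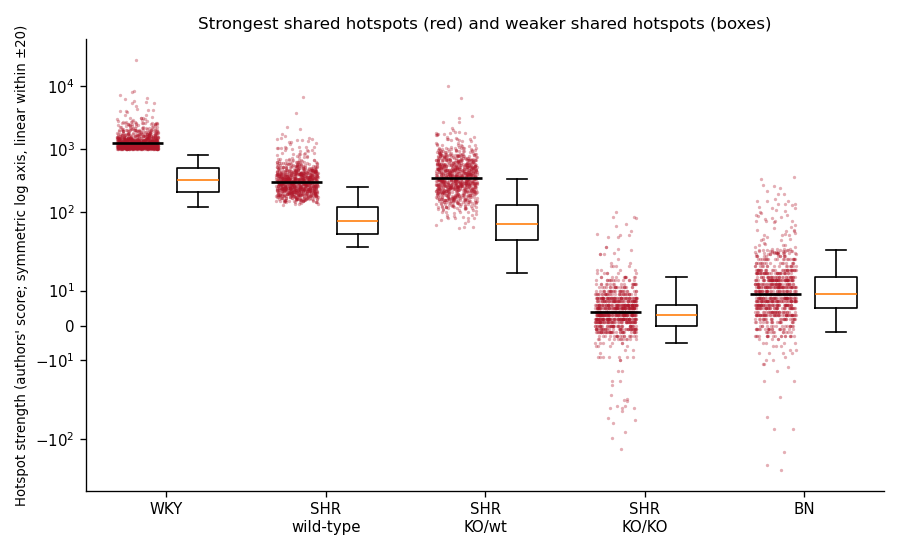
Hotspot strength (authors' score, symmetric log axis that is linear within 20 of 0) in each of the 5 libraries. Red points are the 932 strongest shared hotspots with their median as a black line, and boxes show the quartiles of 16785 weaker shared hotspots with the 5% and 95% points as whiskers. The red medians of 1232, 300 and 349.5 in WKY, wild-type SHR and KO/wt fall to 4 in KO/KO and 9 in BN, where the boxes lie at the same level.

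The plot of strength by library shows that the ranges met at their ends, with a highest value of 99 in KO/KO and 352 in BN and a lowest value of 56 in KO/wt. In KO/KO 190 sites and in BN 97 sites had a strength of 0 or less. Over the 932 sites, wild-type SHR and KO/wt strengths had a Spearman correlation of 0.818, WKY and wild-type SHR 0.537, and WKY and KO/wt 0.423. BN strength had correlations between -0.03 and 0.03 with the other libraries. KO/KO strength had correlations of 0.19 with wild-type SHR and with KO/wt. These correlations describe windows that share their libraries, over a range narrowed by the rule.

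Nearly all of the hotspots were called in the heterozygote. KO/wt called 885 of 932 (94.96%, 93.4 to 96.2), where it called 21.6% of all autosomal windows. The counts in the libraries that chose them were 893 (95.8%) in WKY, beside 38.3% of all autosomal windows, and 886 (95.1%) in wild-type SHR, beside 21.8%. Of the sites, 178 (19.1%, 16.7 to 21.7) overlapped another window of the table, against 17.4% of all autosomal windows, and all 39 without a WKY mark were among them. When a call in an overlapping window was counted, WKY called all 932, and wild-type SHR and KO/wt called 918 each. Counted in this way, KO/KO called 60 (6.44%) and BN 92 (9.87%). These counts were not made over all autosomal windows. Among the 863 sites called in both WKY and wild-type SHR, KO/wt called 854 (99.0%, 98.0 to 99.5), against 80.4% (79.8 to 81.0) of weaker shared hotspots.

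The commonest combination of marks, in 830 sites, was WKY, wild-type SHR and KO/wt without the other libraries. A further 23 sites were called in these libraries and BN, and 1 in these and KO/KO. The remaining combinations were WKY alone (29), both SHR libraries with PRDM9 and not WKY (21), WKY and wild-type SHR (9), BN alone (9), KO/wt alone (7), both SHR libraries and BN (2) and WKY with KO/wt (1). Every site of a combination without a WKY call overlapped another window.

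On the deposited scale the heterozygote was, at the median of these sites, somewhat stronger than the wild-type male. The ratio of KO/wt to wild-type SHR strength had a median of 1.17 (1.13 to 1.20), with quartiles of 0.890 and 1.497. KO/wt was above wild-type at 595 of 932 sites (63.8%), against 42.5% of weaker shared hotspots, whose median ratio was 0.918 (0.909 to 0.927). At 232 sites KO/wt reached 1.5 times wild-type or more, and at 71 it was under 0.67 of it. With each library divided by its summed strength over called autosomal hotspots the median ratio was 1.00, and with each divided by its median called strength it was 1.20, so the size of the excess over wild-type rests on the scaling.

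The ratio differed by wild-type SHR strength, a value that the rule used and that is also the ratio's denominator, so the following values are a description. At a wild-type SHR strength of 150 to 199 the median ratio was 0.986 at 130 of the strongest sites and 1.07 at 1286 weaker shared hotspots. At 200 to 299 it was 1.06 (n = 316) and 1.18 (n = 1020), and at 300 to 399 it was 1.24 (n = 230) and 1.35 (n = 297). At 400 to 699 it was 1.30 (n = 192) and 1.34 (n = 143), and at 700 or more 1.30 (n = 45) and 1.35 (n = 10). At equal SHR strength, then, the strongest shared hotspots had the lower median in each of these 5 ranges, while in the 19 sites between 100 and 149 theirs was the higher, 1.15 against 0.976. The intervals of the medians were apart at 200 to 299 (1.03 to 1.12 against 1.14 to 1.21), met at their ends at 150 to 199 and overlapped in the others.

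**Figure D2:**
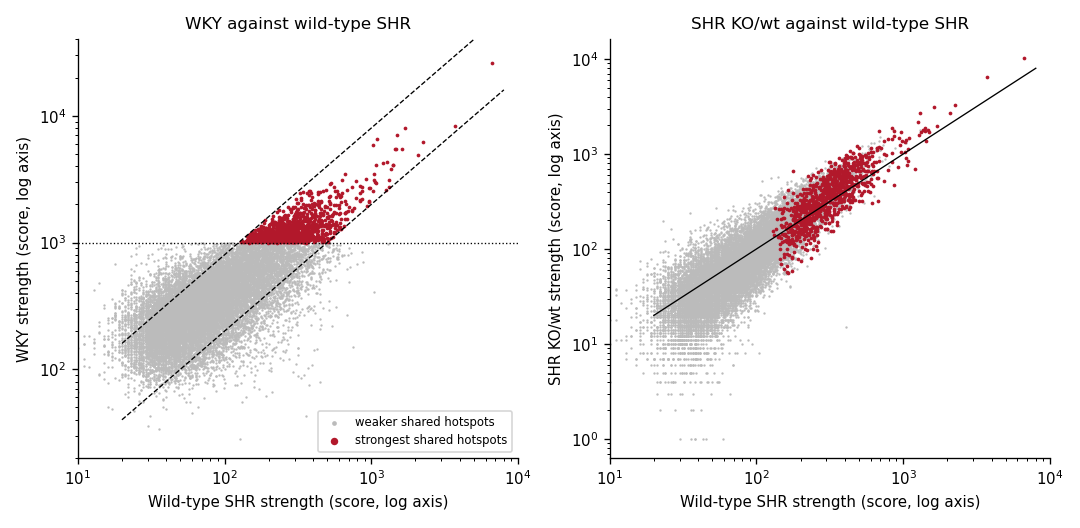
WKY strength (left) and SHR KO/wt strength (right) against wild-type SHR strength, all as the authors' score on log axes. Red points are the 932 strongest shared hotspots and grey points are weaker shared hotspots with values above 0. Dashed lines mark WKY strengths of 2 and 8 times SHR, the dotted line marks 1000, and the solid line marks equal strength. The red points on the right rise along the solid line, with 595 above it.

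Within the strongest shared hotspots the ratio also followed how far WKY exceeded SHR. Split into 5 classes of 186 or 187 sites by the WKY to SHR ratio, the lowest class (2.02 to 3.17) had a median KO/wt to wild-type ratio of 1.38 (1.31 to 1.47). It was 1.22, 1.11 and 1.05 in the following classes and 1.03 (0.958 to 1.13) in the last (5.82 to 7.96). Both ratios share the wild-type SHR value as their denominator, and that value also took part in the choice of sites.

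The extremes of the ratio were single windows of moderate strength. The highest was at chr9:42809809-42812809, with a strength of 177 in the wild-type and 664 in the KO/wt male, a ratio of 3.75. It was 1241 in WKY, 3 in KO/KO and 6 in BN. The next were chr13:93158316-93161316 (311 and 825, ratio 2.65) and chr1:33754849-33757849 (318 and 829, ratio 2.61). The lowest was at chr20:22524944-22527944, with 176 in the wild-type and 58 in the KO/wt male, a ratio of 0.330, and 1017 in WKY. It was followed by chr14:9320038-9323038 (234 and 80, ratio 0.342) and chr16:5605455-5608455 (163 and 56, ratio 0.344). All but 1 of these 6 windows overlapped no other window, and KO/KO was between -5 and 7 in all of them.

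Without PRDM9 these sites lay, as a group, at about the level of uncalled windows. KO/KO called 1 of the 932 sites (0.107%, 0.0189 to 0.605), where it called 38.8% of all autosomal windows and 1.04% (0.900 to 1.21) of weaker shared hotspots. The called site was chr3:52845852-52848852, with a KO/KO strength of 40 beside 1921 in WKY, 330 in SHR wild-type, 350 in KO/wt and 11 in BN. In 5 sites (0.536%) KO/KO reached the median of called autosomal KO/KO hotspots, against 1.02% of weaker shared hotspots. The highest KO/KO values were 99 at chr7:78733525-78736525 (WKY 1462, wild-type SHR 401, KO/wt 916, BN -3), 83 at chr1:47013323-47016323 (WKY 1043, wild-type SHR 238, KO/wt 236, BN 9) and 83 at chr9:116824393-116827393 (WKY 1130, wild-type SHR 275, KO/wt 169, BN 4). These windows overlapped others of the table and none was called in KO/KO. A called KO/KO hotspot was, or started within 3 kb of, 60 of the sites (6.44%, 5.03 to 8.20), against 7.79% (7.40 to 8.21) of weaker shared hotspots. The weaker ones were all called in WKY and wild-type SHR, as not all of the sites were. This share was not computed over like sets or over all autosomal windows.

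In BN, with its other Prdm9 allele, 34 of the 932 sites were called (3.65%, 2.62 to 5.05), where BN called 20.8% of all autosomal windows and 1.63% (1.45 to 1.84) of weaker shared hotspots. Of the 34, 11 were not called in WKY, and all 11 overlapped another window. Among sites called in both WKY and wild-type SHR, 23 of 863 (2.67%, 1.78 to 3.97) were called in BN. Without overlapping windows the shares were 2.83% (1.86 to 4.29) and 1.71% (1.51 to 1.94) for strongest and weaker shared hotspots, and in both of these comparisons the intervals overlapped. A BN hotspot was, or started within 3 kb of, 92 of the sites (9.87%, 8.12 to 12.0), against 5.95% (5.60 to 6.32) of weaker shared hotspots. These sets are unlike, since the weaker ones were all called in WKY and wild-type SHR. Another window overlapped 19.1% of the sites and 13.75% of the weaker ones. For this distance no share was computed over like sets or over all autosomal windows. BN strength at the 34 called sites ran from 31 to 352 with a median of 77.5. In 32 sites (3.43%) BN reached the median of called autosomal BN hotspots, against 1.44% of weaker shared hotspots, again over unlike sets.

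The strongest BN values belonged to an overlapping pair on chromosome 4. The window chr4:6970952-6973952 had 352 in BN, 1340 in WKY, 314 in SHR wild-type, 485 in KO/wt and 3 in KO/KO, and was called in BN alone. The window chr4:6970453-6973453 had 334, 1665, 363, 557 and 3, and was called in WKY, wild-type SHR and KO/wt. The site chr20:15271521-15274521 overlapped no other and was called in all but KO/KO, with 271 in BN, 1383 in WKY, 253 in SHR wild-type, 234 in KO/wt and 2 in KO/KO. The next of the called sites, chr6:144296264-144299264, had 253 in BN, 2504 in WKY, 433 in SHR wild-type, 1082 in KO/wt and 1 in KO/KO. Of these 3 called sites, BN was slightly above wild-type SHR at those on chromosomes 4 and 20 and below it on chromosome 6.

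The sites, though few, held a large part of the signal in the libraries that share their allele. The 893 called in WKY were 2.56% of its called autosomal hotspots and 11.8% of their summed strength, and the 886 called in wild-type SHR were 4.45% and 14.7%, as the rule brings about. The 885 called in KO/wt were 4.51% of hotspots and 16.2% of the summed strength. The 34 called in BN were 0.179% of hotspots and 0.172% of strength, and the 1 called in KO/KO 0.00283% and 0.00113%.

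The hotspots lay on all 20 autosomes, at densities that differed about 2-fold. Chromosome 1 had 116 of them, 12.7 per 1000 windows of the table, followed by chromosome 9 with 61 (12.6) and chromosome 6 with 64 (12.5). The lowest densities were on chromosome 12 with 13 (5.78), chromosome 20 with 14 (5.89) and chromosome 11 with 20 (6.34). As a share of hotspots called in both WKY and wild-type SHR they ranged from 3.18% on chromosome 11 to 6.57% on chromosome 9. The median KO/wt to wild-type ratio by chromosome ran from 0.819 on chromosome 16, with 23 sites, to 1.37 on chromosome 4, with 76 sites. Between 0 and 5 sites per chromosome were called in BN.

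The sites were not concentrated at chromosome ends. The KO/wt ratio was lowest in the last 10 Mb and was not computed for the first 10 Mb. Taking the outermost windows of the table as chromosome ends, 84 sites (9.01%, 7.34 to 11.0) lay in the last 10 Mb, against 9.22% of all autosomal windows and 8.09% of weaker shared hotspots. In the first 10 Mb there were 46 (4.94%, 3.72 to 6.52), against 6.42% and 6.26%. The median KO/wt to wild-type ratio was 0.886 (0.772 to 0.994) in the last 10 Mb, 1.08 at 10 to 30 Mb, 1.28 (1.19 to 1.39) at 30 to 60 Mb, 1.27 at 60 to 100 Mb and 1.14 at 100 Mb or more. Weaker shared hotspots followed the same order at a lower level, from 0.800 (0.763 to 0.826) in the last 10 Mb to 0.986 at 30 to 60 Mb. Median wild-type SHR strength of the sites was 267 in the last 10 Mb and 282.5 at 30 to 60 Mb, while KO/wt strength was 260.5 and 364. The WKY to SHR ratio, which took part in the choice, was 5.13 in the last 10 Mb and 4.06 at 100 Mb or more.

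**Figure D3:**
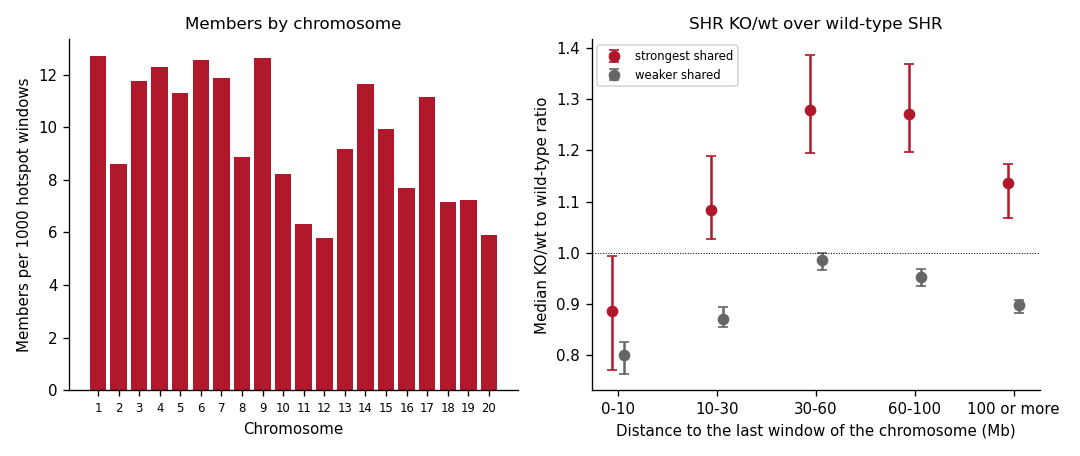
Left, strongest shared hotspots per 1000 hotspot windows on each autosome. Right, median ratio of KO/wt to wild-type SHR strength by distance to the last window of the chromosome, for strongest (red) and weaker (grey) shared hotspots, with 95% intervals of the median that cover counting error only and a dotted line at equal strength. The red median is 0.886 in the last 10 Mb and 1.28 at 30 to 60 Mb, and the grey medians are 0.800 and 0.986.

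Neighbouring sites on a chromosome were a median of 1.27 Mb apart over 912 pairs, with the largest gap at 67.0 Mb. Of these pairs 89 lay under 100 kb apart and 29 overlapped, which leaves 903 separate loci. The closest pair, 420 bp apart, was chr8:32564824-32567824 (WKY 1439, wild-type SHR 218, KO/wt 253, KO/KO 2, BN 16) and chr8:32565244-32568244 (1453, 209, 250, 6 and 19 in the same libraries). The first was called in both SHR libraries with PRDM9 and the second in WKY alone.

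The very strongest sites stood together in a few places. With neighbours at most 1 Mb apart joined into runs, the 3 with the most sites held 39: 16 at chr3:52239119-53670010, 16 at chr1:148002814-150727506 and 7 at chr1:152658493-153201785. The break between the chromosome 1 runs came from the ratio limit, not from a lack of strong shared hotspots. Several windows between them were called in both WKY and wild-type SHR, with a WKY strength over 1000. These fell below the ratio band, so they were not sites, and they spanned the gap in steps under 1 Mb. The densest 1 Mb, with 13 sites, began at the start of the chromosome 3 run. Median WKY strength was 4281, 2682 and 1546 in these runs. Over the 39 sites the medians were 3128 in WKY, 1039 in the wild-type and 842 in the KO/wt male, against 1222, 294 and 341 in the other 893. KO/KO and BN medians were 8 and 6 in the runs and 4 and 9 outside them. The KO/wt to wild-type ratio was 1.09 (0.877 to 1.27) in the runs and 1.17 (1.13 to 1.20) outside. The runs differed, with medians of 1.24 on chromosome 3 and of 1.01 and 0.820 in the runs of 16 and 7 on chromosome 1.

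The same 3 places also held strong hotspots of the other libraries, at windows other than these sites. Copy number, mappability and assembly gaps there, which could bear on the strengths in every library, were not tested. Leaving the sites out, KO/KO hotspots in the runs had median strengths of 255 (n = 19), 251 (n = 19) and 217 (n = 14), against 64 over all autosomes and 72.5, 68 and 77 within 10 Mb of each run. BN hotspots had medians of 162.5 (n = 32), 132 (n = 37) and 505 (n = 13), against 71 over all autosomes and 71, 79 and 79 in the flanks. Windows not called in BN had medians of 3 to 5 in the runs and 8 over all autosomes, and those not called in KO/KO 2 to 3 and 3. On chromosome X, which has no full homologue in males, the medians of called hotspots were 125 in KO/KO and 129 in BN. They were 436.5 in WKY, 160 in wild-type SHR and 121 in KO/wt. The paper's plot of X strength was scaled for copy number, and whether the deposited values were is not stated. A link between these values and the runs was not tested.

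**Figure D4:**
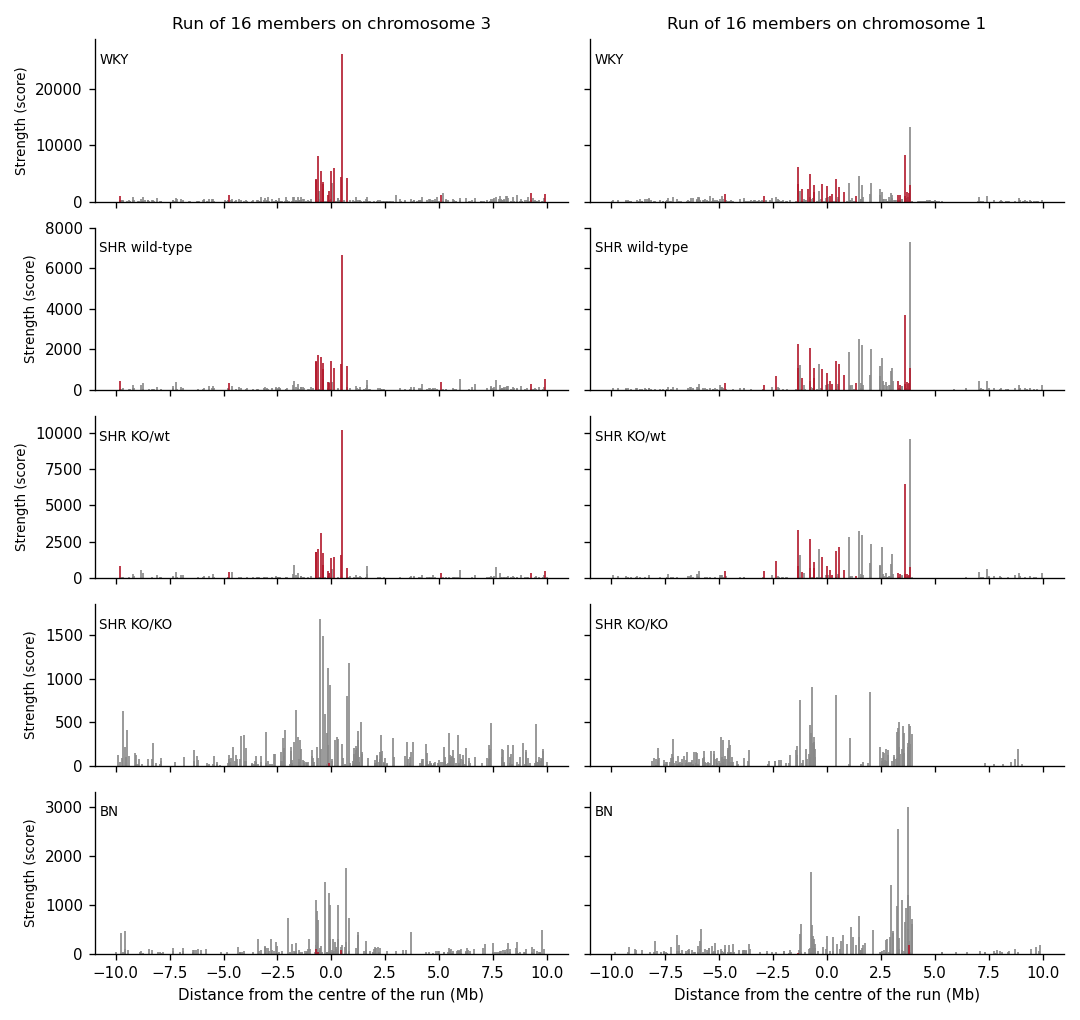
Strength (authors' score, own axis for each library) of called hotspots in the 5 libraries over the runs of 16 strongest shared hotspots on chromosome 3 (left) and chromosome 1 (right), by distance in Mb from the centre of the run, out to 10 Mb on either side. Red lines are strongest shared hotspots and grey lines are other called hotspots with strengths above 0. Tall lines gather within the runs in all 5 libraries. In WKY, wild-type SHR and KO/wt they are mostly red on the left and both red and grey on the right, where the tallest is grey, and in KO/KO and BN they are grey. On the right they gather again near the run of 7, and in WKY, wild-type SHR and KO/wt tall grey lines also stand between the runs.

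The plot of the runs shows tall hotspots of BN and KO/KO between the red sites rather than on them. Of the 20 strongest autosomal hotspots of each library, the 3 runs held 13 in WKY, 12 in SHR wild-type, 10 in KO/wt, 3 in KO/KO and 5 in BN. They held 0.318%, 0.397%, 0.402%, 0.150% and 0.458% of all called autosomal hotspots. WKY and wild-type SHR strengths chose the sites, so the counts for these libraries are a description. Of their 20 strongest, 14 and 13 were sites themselves, as were 10 in KO/wt and 0 in KO/KO and BN. The strongest autosomal hotspot of BN, chr1:153132652-153135652, lay in the run of 7 with a BN strength of 3008, 13 in WKY and -32 in wild-type SHR. The second strongest of KO/KO, chr3:52440317-52443317, lay in the chromosome 3 run with 1685 in KO/KO, 15 in WKY and 12 in wild-type SHR. The runs were found from the positions of the sites, and they were singled out after their values in all libraries were seen.

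Over all autosomes, with the runs included, the same tendency was small. Called BN hotspots 3 to 100 kb from one of the 932 sites had a median strength of 77 (73 to 80), those 100 kb to 1 Mb away 73 (71 to 75) and those 1 Mb or more away 69 (68 to 70). KO/KO hotspots had 71 (68 to 74), 67 (66 to 68) and 60 (59 to 61). With the 3 runs left out the nearest class had 75 in BN and 70 in KO/KO, and the other classes did not move.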

How the data were processed

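The authors mapped the SSDS reads with bwa 0.7.12, in a modified version, against rn5 (rat), kept uniquely mapping type 1 single-stranded fragments with an alignment score over 30, called hotspots in each library and deposited 1 merged table. Its strength columns are the authors' score (definition and scaling not given in the sources used here), and its marks of called hotspots are 1 or 0. Coordinates are rn5 as deposited, whose start convention is not stated. Bedtools 2.23.0 and MACS2 2.1.0.20150420 are also named in the submitters' processing notes.

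From these values the windows were selected, counted and compared in Python 3.11.15 using pandas 2.3.3, scipy 1.17.1 and numpy 2.4.6, and figures were drawn with matplotlib 3.10.9. Medians carry exact binomial order-statistic intervals and shares Wilson intervals, both at 95%. Scripts were tested on simulated data (5 of 5 known answers recovered). Windows named were the 5 highest in WKY, the 3 highest in each other library, the 3 highest and lowest KO/wt ratios, windows at each limit, called BN and KO/KO sites and the closest pair, and the 3 runs with the most sites were chosen after their values were seen. The sites and comparisons were chosen with earlier results of these data known. With 1 library per condition no tests were made. No rn5 genome or annotation was used, so no hotspot sequence or gene position is given. Alternatives covered the strength minimum, ratio band, overlaps, called marks, statistic, scaling, end width and the 3 runs with the most sites.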

Additional observations from a re-analysis of the deposited data

How the results depend on the processing

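50 values were recomputed under another setting. Of these, 35 stayed within the reported value's 95% interval (within a factor of 1.5, for the number of sites), and 15 fell outside it. With a WKY minimum of 2000 there were 88 sites, of which KO/wt called 89.8%, BN 5.68% and KO/KO 0%, with medians of 8 in BN and 6 in KO/KO. KO/wt called 98.4% of sites without overlaps and 99.0% of those called in both WKY and wild-type SHR, where 14.0% overlapped another window. Means in place of medians gave a KO/wt to wild-type ratio of 1.22, 13.5 in BN and 4.11 in KO/KO. Scaling by summed strength gave a ratio of 1.00, so the excess of KO/wt over wild-type all but vanished. The last 5 Mb held 3.004% of sites, against 3.81% of all autosomal windows and 3.98% of weaker shared hotspots. Leaving out the 3 runs with the most sites, chosen after seeing the data, left 0% called in KO/KO, as its 1 called site lay in a run. No paired analysis was possible because each strain and genotype had 1 library. Depth is unknown, so weak BN or KO/KO signal at these sites cannot be bounded in reads, and the strength scale limits all comparisons between libraries.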

Other observations

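12 of the strongest shared hotspots overlapped no other window and were called in WKY but in neither SHR library with PRDM9, although their strengths there were not low. Wild-type SHR strength at these 12 ran from 188 to 1022 with a median of 491.5, against 300 over all 932 sites, and KO/wt strength from 171 to 1235 with a median of 367. The strongest were chr16:69638574-69641574 (WKY 2543, wild-type SHR 1022, KO/wt 1041, KO/KO 4, BN -1) and chr1:70697590-70700590 (WKY 2704, wild-type SHR 958, KO/wt 1235, KO/KO 5, BN 3). Why they were not called was not tested. These windows were chosen after their values were seen.

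The surroundings of both hold further sites and strong BN hotspots. On chromosome 16, 5 of the sites lay at chr16:69516537-69673449, with a median WKY strength of 1981. The third strongest autosomal BN hotspot, chr16:69422438-69425438, had a BN strength of 2814, and the second strongest, chr1:70144951-70147951, had 2976. WKY and wild-type SHR strengths in these BN hotspots were between -18 and 5.

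Strength fell below -30 at 16 of the sites, in BN at 6 and in KO/KO at 10, and 14 of the 16 overlapped another window. The lowest were -309 in BN at chr16:69657224-69660224 and -145 in KO/KO at chr17:38029806-38032806, the second of which was also among the 12 windows above.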
